A study of Bos taurus with 8 samples.

Results

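Interferon-stimulated genes were followed through 5 single-cell RNA-seq libraries of bovine muscle. The 9 genes were ISG12(B), ISG15, IFI6, MX1, MX2, RSAD2, IFIH1, IRF1 and IRF7. They are textbook interferon response genes, taken by name, but the choice was made with earlier results of these data known. Each matched 1 of the 21880 genes in the deposited matrices. Interferons are secreted proteins that bind receptors on the cell surface and, through the JAK kinases, the STAT factors and IRF9, switch on a large set of antiviral genes. Sensors of foreign or misplaced nucleic acid, such as the product of IFIH1, act upstream of interferon production, and the transcription factors IRF1 and IRF7 relay the signal. Endothelial cells and blood leukocytes are well known responders, and cultured fibroblasts are the cells in which the antiviral state has most often been studied.

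Semitendinosus muscle of 10 Belgian Blue cattle, calves and adults of both sexes, was digested with collagenase to free its single cells. The first library held unsorted cells straight from muscle; the second held unsorted cells of 9 of these donors after 72 h in a serum-free growth medium on fibronectin (passage 0). Libraries 3, 4 and 5 held passages 2, 5 and 8 of 3 kinds of culture grown in that medium: cells of donors 1, 2 and 9 stayed unsorted (fibronectin), those of donors 5, 6 and 10 were sorted satellite cells (SCs, laminin-521), and those of donors 4, 7 and 8 were sorted fibro-adipogenic progenitors (FAPs, collagen I). Each library pooled all donors of its timepoint, and donors were told apart by genotype. Library and timepoint therefore cannot be told apart, and because each donor went into 1 kind of culture, donor and culture cannot be told apart either.

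The libraries held 2772 to 10405 cells. The median cell had 4184 UMIs (unique molecular identifiers, counts of single RNA molecules) in the muscle library and 18340 to 27239.5 in the others. Cell types carry the authors' deposited names, and UMIs of cells of 1 type, donor and timepoint were summed wherever there were at least 10 cells. Levels are UMIs per 1000000 UMIs of that sum (CPM). In the types compared, the summed FAP markers (DCN, LUM and PDGFRA) at passage 2 ran from 9217 to 18045 CPM in the FAPs of FAP and unsorted cultures and from 1168 to 6239 CPM in SCs. In the few FAPs of SC cultures they were at 3385 to 4088 CPM (2 donors), within the range of SCs. A gene is described as called, higher or lower where edgeR's quasi-likelihood test over all genes gave a Benjamini-Hochberg adjusted p below 0.05 and a log2 fold change above 1 or below -1. Donors are separate animals.

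**Figure D1:**
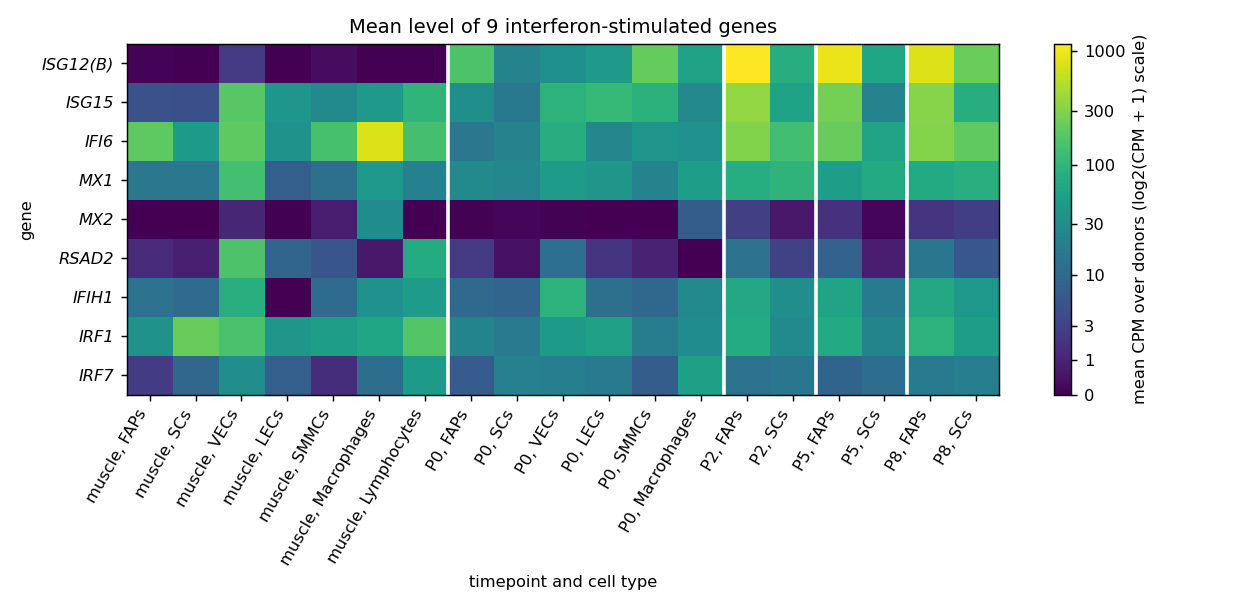
Mean CPM of the 9 genes (rows) in each cell type and timepoint with at least 3 donors (19 columns), shaded by log2(CPM + 1). Among the muscle columns, which leave out neutrophils, the levels of RSAD2, MX1 and IFIH1 are highest in vascular endothelial cells. The level of ISG12(B) is lowest in the muscle columns and highest in FAPs from passage 2 on.

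In muscle, the vascular endothelial cells (VECs) stood out. Of the 9 genes 5 were higher in VECs than in the rest of the same donors' cells, 2 were tested and not called, and 2 (ISG12(B) and MX2) had too few UMIs to test; over all genes tested, 11.4% were higher and 23.8% were called in either direction. The median log2 difference of the 7 members tested was 2.19, against -0.02 for all genes tested. RSAD2 encodes viperin, a radical SAM enzyme that makes a chain-terminating nucleotide. Its level in VECs was 158 ± 66.6 CPM (SD, n = 10 donors; lowest 87.4, median 134, highest 282). In SCs it was 0.878 ± 1.50 CPM, in FAPs 1.33 ± 1.88 and in macrophages 0.612 ± 1.29, so the lowest VEC value lay above every value in those 3 types. The log2 difference from the other cells was 4.55 ± 0.31 (SE; adjusted p = 2.445e-11), with VECs higher in 10 of 10 donors.

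MX1 encodes a dynamin-like GTPase that traps viral nucleocapsids. In VECs it ranged from 33.4 to 323 CPM with a median of 107, and it was higher than in the other cells by 2.80 ± 0.39 on the log2 scale (adjusted p = 3.761e-06; 10 of 10 donors). IFIH1, which encodes the cytoplasmic double-stranded RNA sensor MDA5, was at 41.7 to 145 CPM in VECs (median 77.6) and at 13.3 ± 7.31 CPM in FAPs (n = 10), a log2 difference from all other cells of 2.19 ± 0.20 (adjusted p = 5.338e-10). IRF7, the factor that drives transcription of type I interferon genes, was higher by 1.86 ± 0.28 (adjusted p = 3.534e-06), again in 10 of 10 donors. VECs were not its highest type, with a mean of 31.4 ± 15.4 CPM against 45.3 ± 20.9 in lymphocytes. In the 23 neutrophils of donor 4, IRF7 was at 137 CPM and IFIH1 at 228 CPM, from 6 and 10 UMIs. The VECs of that donor were at 26.9 and 64.3 CPM.

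ISG15, a ubiquitin-like protein that is attached to other proteins, was the most uneven of these genes between animals. Its VEC level ran from 24.2 to 545 CPM (median 144), its log2 difference was 2.32 ± 0.54 (adjusted p = 0.001115), and VECs were higher in 9 of 10 donors. IFI6, which encodes a small membrane protein of the antiviral response, was at 199 ± 74.7 CPM in VECs and 201 ± 110 CPM in FAPs, and VECs were not called against the other cells (log2 difference -0.25 ± 0.25, adjusted p = 0.4316). IRF1, a factor activated by interferon-gamma, was higher in VECs of 10 of 10 donors, but by 0.91 ± 0.17, under the fold threshold.

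FAPs and SCs showed the reverse of VECs for most of these genes, with the endothelial UMIs on the other side of each comparison. In FAPs 5 of the 9 were lower than in the donors' other cells (12.1% of all genes lower, 21.8% called), led by RSAD2 (-4.97 ± 0.47, adjusted p = 4.508e-09) and ISG15 (-4.38 ± 0.60, adjusted p = 3.09e-06). In SCs 5 were lower and 1 was higher (15.8% of all genes lower, 21.5% called). RSAD2 in both types and ISG15 in FAPs had few UMIs and entered these tests through the other cells. Their direction was therefore fixed in advance, and they are part of these counts. The lower ones included RSAD2, with 3 UMIs in all SCs against 764 elsewhere, which is a level 39.3-fold lower with a 95% counting interval of 13.4 to 191, and IFI6 (-2.53 ± 0.33, adjusted p = 1.305e-06).

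The exception in SCs was IRF1. Its level was 222 ± 60.1 CPM (lowest 129, median 230, highest 328) against 35.1 ± 18.0 CPM in FAPs (highest 65.7), so the SC and FAP donors did not overlap. SCs exceeded the other cells by 1.45 ± 0.19 (adjusted p = 4.388e-07) in 10 of 10 donors.

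The leukocyte types differed from each other. Macrophages had IFI6 at 798 ± 419 CPM (lowest 349, median 706, highest 1571), a log2 difference of 2.39 ± 0.31 from the other cells (adjusted p = 1.095e-06, 10 of 10 donors). They had RSAD2 35.7-fold lower from 3 UMIs (95% counting interval 12.2 to 174), with the UMIs of VECs and lymphocytes on the other side. RSAD2 entered this test through those other cells, so its direction was fixed in advance. Its low mean of 0.612 CPM in macrophages was shared with SCs (0.878) and FAPs (1.33). Of all genes 29.7% were called in macrophages. Lymphocytes had RSAD2 at 74.8 ± 37.1 CPM and IRF1 at 172 ± 41.5 CPM, higher than the other cells by 1.37 ± 0.44 (adjusted p = 0.01361; 8 of 10 donors) and 1.15 ± 0.16 (adjusted p = 1.063e-06; 10 of 10), where 33.5% of all genes were called. IRF1 in lymphocytes fell under the fold threshold, at 0.91, when library totals were used without TMM scaling. MX2, the second bovine MX GTPase, had a mean of 29.4 ± 55.5 CPM in macrophages, carried by a highest value of 181 CPM over a median of 8.97, and it was at 0 in the FAPs, SCs, lymphocytes and lymphatic endothelial cells of muscle.

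The neutrophils were few, 51 cells of 9 donors with 98772 UMIs together, and were pooled without a test. ISG15 had 282 of these UMIs, or 2855 CPM with an exact Poisson interval of 2532 to 3208 that covers counting error only. Donors differed widely: donors 3, 5 and 10, with 2 to 6 neutrophils each, were at 6776 to 10253 CPM, donor 4, with 23, was at 2640 CPM, donor 7 at 1110 CPM, and donors 1, 2, 6 and 8 had 0 UMIs. Of the pooled UMIs MX1 was at 243 CPM (156 to 362), MX2 at 162 (92.6 to 263) and ISG12(B) at 0 UMIs, which allows up to 30.4 CPM (3 counts). In the only donor with 10 or more neutrophils, the neutrophil marker S100A12 was at 22461 CPM and the FAP marker DCN at 5803 CPM, so these cells also held RNA of another type; its part in the levels was not tested.

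Smooth muscle and mesenchymal cells (SMMCs) and lymphatic endothelial cells (LECs) had no gene called higher. In SMMCs 2 of 5 tested genes were lower than in the other cells, MX1 (-2.05 ± 0.65) and IFIH1 (-1.23 ± 0.39; 13.0% of all genes lower, 21.3% called), and 4 with the donor as a block, which added ISG15 and IRF1. In LECs of 4 donors 3 of 7 tested were lower (8.6% of all genes lower, 12.9% called), namely IFI6 (-3.08 ± 0.54, adjusted p = 0.00167), IFIH1, which had 0 UMIs and was at least 3.06-fold lower by a floor of 3 counts over the group, and IRF1 (-1.52 ± 0.43, adjusted p = 0.02273). IFIH1 entered the LEC test through the other cells, so its direction was fixed in advance, and it is part of the 3. IRF1 in LECs lost its call without donor 7, 8 or 10, with adjusted p from 0.05176 to 0.1459. With the donor block 5 genes were called in LECs, MX1 and RSAD2 being added; both rest on 2 UMIs in LECs. Without the donor block ISG15 was not called in either type, and with it ISG15 was called lower in SMMCs only. Its mean level of 28.1 ± 16.4 CPM in SMMCs and 40.0 ± 32.9 CPM in LECs was above that of FAPs (4.67, highest donor 11.3) and SCs (4.57, highest donor 20.5).

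**Figure D2:**
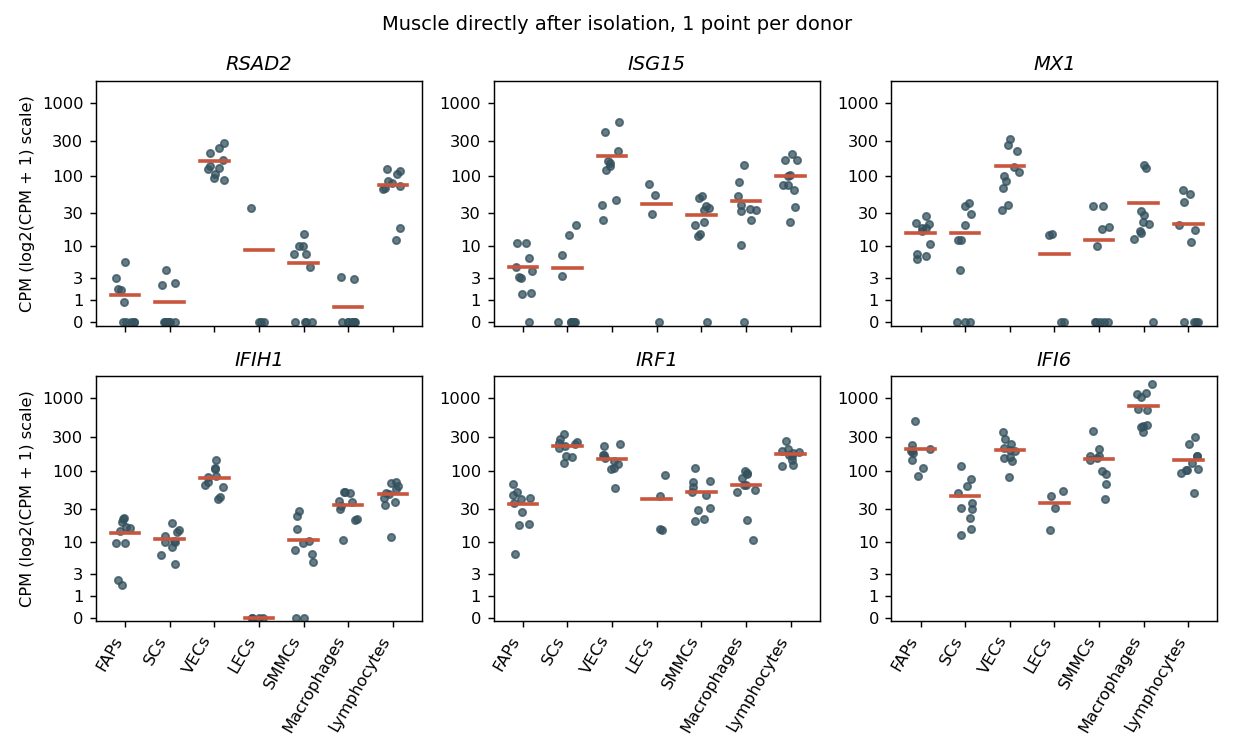
Level (CPM) of 6 of the genes in 7 cell types of muscle, 1 point per donor, with the mean as a red line. RSAD2 points of vascular endothelial cells (87.4 to 282 CPM) lie apart from those of FAPs and SCs (0 to 5.74 CPM), and IRF1 points of SCs (129 to 328 CPM) lie above those of FAPs.

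After 72 h in culture, ISG12(B) was found in all 6 cell types compared with muscle, where it had been close to or at 0 in each. ISG12(B) belongs to the family of small hydrophobic mitochondrial proteins that also holds IFI27. In the whole muscle library it had 14 UMIs, 12 of them in VECs. FAPs had 1 UMI in muscle and 23328 at passage 0, when their level was 160 ± 69.9 CPM (lowest 80.0, median 124, highest 281; n = 9). The pooled level was 1323-fold higher with a 95% counting interval of 237 to 52245, and it was higher in 9 of 9 donors (adjusted p = 3.104e-12; 43.4% of all genes called in FAPs between these libraries, 21.0% higher).

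The same gene appeared in the other types at passage 0. It was at least 22.1-fold higher in SCs and at least 53.9-fold higher in macrophages, both at 0 UMIs in muscle, 425-fold higher in SMMCs (1 against 1201 UMIs; 95% counting interval 76.2 to 16819), and higher by 3.43 ± 0.37 on the log2 scale in VECs (adjusted p = 3.638e-09). In LECs, also at 0 UMIs in muscle, it was at least 3.21-fold higher. With every sum of UMIs thinned to the smallest total, ISG12(B) in FAPs was still called (adjusted p = 2.794e-05).

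Within passage 0, ISG12(B) had its highest means in SMMCs and FAPs. SMMCs had 217 ± 87.6 CPM (lowest 133, highest 379; n = 7) and FAPs 160 ± 69.9, whereas SCs had 22.7 ± 4.46 and VECs 33.6 ± 10.4 with a highest value of 54.3, below every FAP and SMMC donor. Macrophages (57.6 ± 40.5, highest 130.2) and LECs (43.9 ± 29.8, highest 84.4) lay between and overlapped the FAP donors. FAPs exceeded the other cells by 1.97 ± 0.28 (adjusted p = 9.542e-06; 9 of 9 donors), SCs differed from them by -2.74 ± 0.26 (adjusted p = 1.135e-07), and SMMCs, at 0.98 ± 0.29, did not reach the fold threshold (adjusted p = 0.02336; 7 of 7 donors). The FAP marker DCN was found in every type of this library, at 2858 CPM on average in FAPs, 1171 in SCs, 1001 in macrophages, 638 in SMMCs, 401 in LECs and 273 in VECs; the part of RNA from FAPs in the ISG12(B) of other types was not tested.

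IFI6 took the opposite course in FAPs. It was at 201 ± 110 CPM in muscle (lowest 87.3, median 191, highest 488) and at 15.2 ± 9.25 CPM at passage 0 (highest 38.7), so the groups did not overlap. It fell by 3.61 on the log2 scale (SE 0.36, adjusted p = 2.29e-08), with 0 of 9 donors higher. It also fell by 4.60 in macrophages (SE 0.48, adjusted p = 3.344e-07; 34.6% of all genes called), by 2.15 in SMMCs (SE 0.39, adjusted p = 8.526e-05; 36.5% called) and by 1.34 in VECs (SE 0.48, adjusted p = 0.01741; 35.1% called). In SCs, which had 45.5 ± 32.7 CPM in muscle, it fell by 1.07 (SE 0.46, adjusted p = 0.04224; 34.3% called), a call lost with RLE scaling (adjusted p = 0.05413) and without the filter on low counts (0.2025). The fall in FAPs exceeded that in SCs by 2.73 ± 0.55 (test of the difference, adjusted p = 1.511e-04; 20.0% of all genes called) and that in VECs by 2.47 ± 0.58 (adjusted p = 6.322e-04; 25.5% called).

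ISG15 rose in FAPs and not in VECs. FAP values were 0 to 11.3 CPM in muscle (median 3.58) and 11.9 to 59.7 CPM at passage 0 (median 29.8), which do not overlap, and the log2 change was 2.99 ± 0.53 (adjusted p = 3.894e-05; 9 of 9 donors). In VECs it was 185 ± 168 CPM before and 95.6 ± 63.9 CPM after (log2 change -1.04 ± 0.52, adjusted p = 0.08192). The 2 changes differed by 3.85 ± 0.86 (adjusted p = 3.401e-04). ISG15 also rose in SMMCs (1.42 ± 0.43, adjusted p = 0.007042), and in SCs, where 6 of 10 muscle donors were at 0, the filter on low counts removed it from this comparison, though not from the joint fits of SCs with another type.

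RSAD2 and MX1, the genes that had marked VECs in muscle, fell there in culture. RSAD2 in VECs was at 87.4 to 282 CPM in muscle and 6.36 to 25.9 CPM at passage 0 (log2 change -3.66 ± 0.29, adjusted p = 4.464e-10; 0 of 9 donors higher), and MX1 went from 138 ± 98.8 to 46.7 ± 11.1 CPM (-1.64 ± 0.34, adjusted p = 2.376e-04; lower in 7 of 9). In FAPs MX1 was at 15.6 ± 7.28 and then 27.5 ± 10.4 CPM, with a log2 change of 0.75 ± 0.30 that did not reach the fold threshold; FAPs and VECs differed in this change by 2.21 ± 0.46 (adjusted p = 1.623e-04). IFIH1 was not called in either type, and VECs remained its highest type at passage 0, at 94.6 ± 28.6 CPM against 10.0 ± 2.95 CPM in FAPs.

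Of the 2 transcription factors, IRF1 fell in SCs and VECs. Its mean was also lower at passage 0 than in muscle in macrophages (29.5 ± 22.7 against 63.6 ± 30.6 CPM). The same held in SMMCs (18.1 ± 8.34 against 51.6 ± 28.4), and the mean was higher in LECs (55.8 ± 31.2 against 41.2 ± 35.0). In SCs the level was 129 to 328 CPM in muscle and 10.1 to 25.6 CPM at passage 0 (median 16.6), without overlap and in 9 of 9 donors, and the log2 change was -3.67 ± 0.19 (adjusted p = 7.079e-14). In VECs the level was 58.4 to 238 CPM in muscle and 14.4 to 61.0 CPM at passage 0, which overlap, and it fell by 1.68 on the log2 scale (SE 0.20, adjusted p = 8.5e-08), which was less than in SCs by 1.87 ± 0.28 (test of the difference, adjusted p = 8.48e-07; 20.9% of all genes called), and in FAPs the change was -0.59 ± 0.24. IRF7 rose in FAPs by 1.44 ± 0.31 (adjusted p = 1.954e-04; 9 of 9 donors), from 2.41 ± 2.28 to 6.69 ± 0.944 CPM. In all, 4 of the 9 genes were called in FAPs (43.4% of all genes), 2 in SCs (34.3%), 5 in VECs (35.1%), 3 in SMMCs (36.5%), 2 in macrophages (34.6%) and 0 in LECs (29.6%), where ISG15 alone could be tested; by an unadjusted p under 0.05 and by DESeq2 LECs had 0 as well. Only 7 members passed the filter on low counts in FAPs, 8 in VECs, 3 in SMMCs and 2 each in SCs and macrophages, so the counts are not read against the shares of all genes.

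Within passage 0, 5 of the 9 genes were higher in VECs than in the other cells and ISG12(B) was lower (13.0% of all genes higher, 27.1% called). The higher ones were IFIH1 (3.35 ± 0.18, adjusted p = 2.277e-12), RSAD2 (2.93 ± 0.44), IFI6 (2.23 ± 0.49), ISG15 (1.65 ± 0.42) and IRF1 (adjusted p = 2.197e-06). By mean CPM VECs were the highest type for IFIH1, RSAD2 and IFI6. For MX1, ISG15 and IRF1 another type had a mean above that of VECs through 1 donor, with MX1 at 179 CPM in the macrophages of donor 10 and ISG15 and IRF1 at 359 and 124 CPM in the LECs of donor 6 (10 cells). Against the other cells LECs were higher in ISG15 (1.59 ± 0.46) and IRF1 (1.12 ± 0.19) and lower in ISG12(B) (-1.40 ± 0.39; 19.9% called). SMMCs were higher in ISG15 (1.42 ± 0.42, adjusted p = 0.02323; 11.1% called) and macrophages in IRF7 (2.28 ± 0.33, adjusted p = 2.217e-05; 12.6% called). FAPs were lower in IFI6, IFIH1 and IRF7 (12.3% called), and SCs were also lower in ISG15 and RSAD2 and higher in IRF7 (11.6% called). With the donor as a block 1 more was called lower in SMMCs (RSAD2, adjusted p = 0.02049) and in macrophages (ISG12(B), adjusted p = 6.485e-09). RSAD2 had few UMIs in SCs and SMMCs and entered these tests through the other cells, so its direction there was fixed in advance. The call of ISG15 in SMMCs was lost with a minimum of 30 cells (adjusted p = 0.1883).

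**Figure D3:**
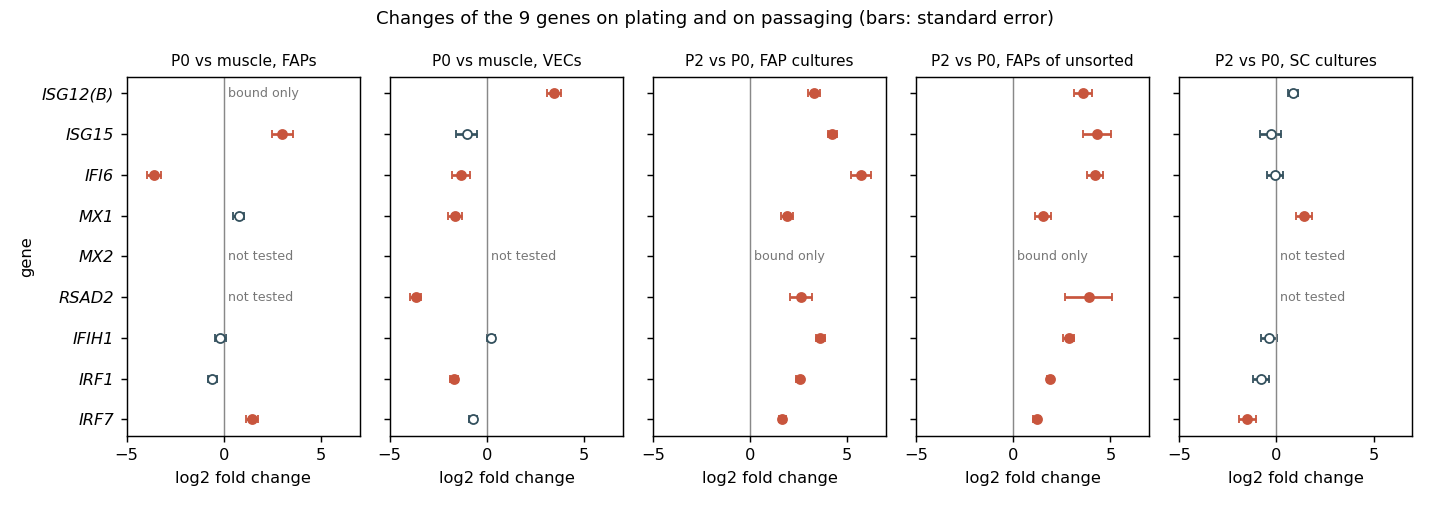
Log2 fold changes with standard errors of the 9 genes in 5 comparisons (panels): passage 0 against muscle in FAPs and in VECs, and passage 2 against passage 0 in FAPs of FAP cultures, FAPs of unsorted cultures and SCs of SC cultures. Filled red points were called and open points were not; in both FAP panels for passage 2 every plotted gene is above 0, and genes with too few UMIs are marked as bound only or not tested.

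From passage 0 to passage 2 all 9 genes were called higher in FAPs, in sorted and in unsorted cultures. MX2 had 0 UMIs at passage 0 in FAP cultures and 2 in unsorted FAPs. It entered the tests through its passage 2 UMIs, so its direction was fixed in advance. MX2 is part of the 9 and of the medians given next. Over all genes 13.4% were higher in each comparison (22.7% and 24.0% called in either direction), and the median log2 change of the members was 3.28 in FAP cultures and 3.57 in unsorted cultures against 0.03 for all genes tested. The 2 comparisons use different donors. ISG12(B) in the FAP cultures of donors 4, 7 and 8 was at 110, 144 and 113 CPM at passage 0 and at 1496, 1163 and 641 CPM at passage 2, a log2 change of 3.28 ± 0.32 (adjusted p = 6.336e-04). ISG15 went from 19.3, 29.8 and 21.1 to 349, 491 and 368 CPM (4.23 ± 0.24, adjusted p = 1.719e-04). In both genes every passage 2 value lay above every passage 0 value. The share of all genes without overlap between these groups is not given here, so this is a description only.

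IFI6, which had fallen in FAPs on leaving muscle, rose from 9.49, 14.9 and 7.25 to 229, 622 and 658 CPM in donors 4, 7 and 8 (5.70 ± 0.53, adjusted p = 6.127e-04). MX1 rose from 21.3, 47.0 and 34.4 to 92.4, 122 and 140 CPM (1.90 ± 0.30, adjusted p = 0.002715). RSAD2 stayed low in CPM, going from 5.52, 2.89 and 0.929 to 19.9, 20.7 and 9.36 (2.61 ± 0.58, adjusted p = 0.009155). The sensor IFIH1 rose by 3.61 ± 0.22 (adjusted p = 1.778e-04), IRF1 by 2.55 ± 0.18 (adjusted p = 2.733e-04) and IRF7 by 1.66 ± 0.17 (adjusted p = 6.414e-04), with no overlap between passages in any of the 3. That lack of overlap is a description only, since its share over all genes is not given here. MX2 had 0 UMIs in these FAPs at passage 0 and 290 at passage 2, at least 61.1-fold higher. Without donor 7 the calls of MX2 (adjusted p = 0.07517) and RSAD2 (0.109) were lost.

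In FAPs of the unsorted cultures the 9 genes were also called higher at passage 2; their changes were not tested against those in FAP cultures. ISG12(B) in donors 1, 2 and 9 went from 124, 80.0 and 121 to 1495, 513 and 1429 CPM (3.57 ± 0.46, adjusted p = 0.00106), ISG15 from 33.5, 11.9 and 17.9 to 539, 122 and 450 CPM (4.29 ± 0.72, adjusted p = 0.003724) and IFI6 from 13.5, 11.6 and 11.2 to 265, 100.3 and 234 CPM (4.21 ± 0.40, adjusted p = 2.471e-04). Donor 2 was lowest at passage 2 in all 3. RSAD2 changed by 3.88 ± 1.22 (adjusted p = 0.03672), MX1 by 1.53 ± 0.42 (adjusted p = 0.02018), and MX2 was 47.2-fold higher from 2 to 214 UMIs (95% counting interval 12.9 to 392). These 3 calls were the least secure: MX1 was lost without any 1 of the 3 donors (adjusted p 0.05 to 0.05983), and MX2 and RSAD2 without donor 1 (0.05767 and 0.07244) or donor 9 (0.05734 and 0.1516).

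SCs of the sorted SC cultures did not follow. Of the 9 genes 1 was higher and 1 lower at passage 2 than at passage 0 (9.76% of all genes called), 5 were not called, and MX2 and RSAD2 had too few UMIs. The higher gene was MX1, at 17.2, 28.3 and 39.3 CPM in donors 5, 6 and 10 at passage 0 and at 95.6, 102 and 38.7 CPM at passage 2, so that donor 10 showed no rise (1.45 ± 0.41, adjusted p = 0.04546). The lower gene was IRF7, from 6.75, 11.3 and 18.4 to 2.74, 3.65 and 7.03 CPM (-1.48 ± 0.43, adjusted p = 0.04745). Without donor 5 or 6 neither was called, and with the donor as a block IRF7 alone was (adjusted p = 0.002333 against 0.1848 for MX1). ISG15 was at 4.05, 15.8 and 26.2 CPM before and at 10.1, 20.0 and 9.23 CPM after (log2 change -0.29 ± 0.53, adjusted p = 0.7316).

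The change from passage 0 to 2 in FAP cultures differed from that in SC cultures for 6 genes (test of the difference; 14.4% of all genes called): IFI6 by 5.78 ± 0.72 on the log2 scale, ISG15 by 4.55 ± 0.65, IFIH1 by 4.01 ± 0.53, IRF1 by 3.37 ± 0.51, IRF7 by 3.16 ± 0.51 and ISG12(B) by 2.43 ± 0.42, with adjusted p from 8.51e-04 to 0.003219. For MX1 the difference was 0.46 ± 0.57 (adjusted p = 0.5773) and for RSAD2 1.55 ± 2.13 (adjusted p = 0.6236). This contrast sets 2 cell types from different donors on different coatings side by side.

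**Figure D4:**
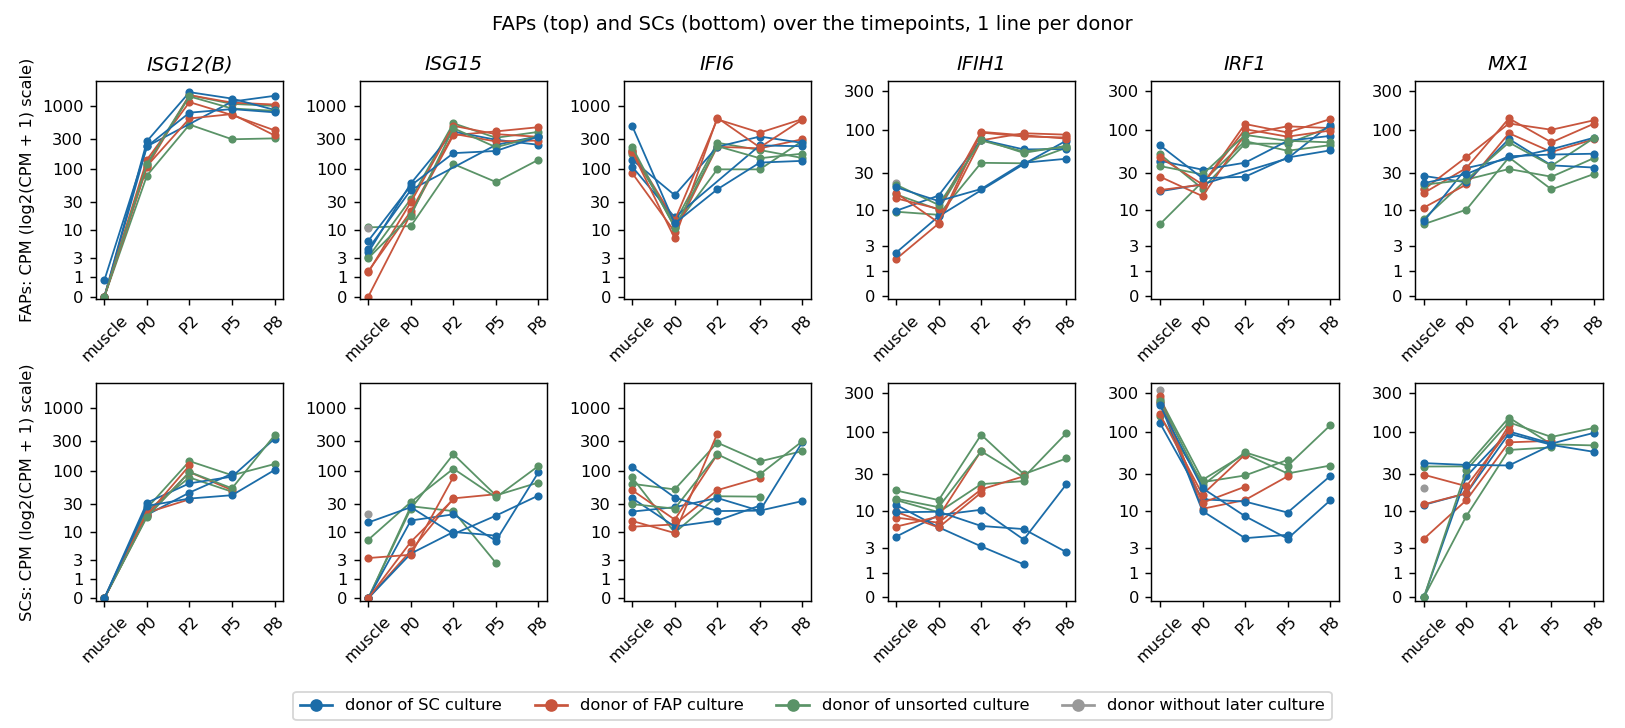
Level (CPM) of 6 genes in FAPs (top) and SCs (bottom) at each timepoint, 1 line per donor, coloured by culture. ISG12(B), ISG15 and IFI6 lines of FAPs step up between passage 0 and passage 2 in sorted and unsorted cultures. In the sorted SC cultures the SC lines of these genes stay low from passage 0 to passage 5. MX1 differs, with SCs of donors 5 and 6 at 95.6 and 102 CPM at passage 2.

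After passage 2 few genes of any kind were called in comparisons of 3 donors, which therefore do not show that levels stayed the same. Against passage 2, none of the 9 genes was called at passage 5 in FAP cultures (0.797% of all genes called by edgeR), unsorted FAPs (2.71%) or SC cultures (3.01%), nor at passage 8 in FAP cultures (0.0361%) or unsorted FAPs (0.817%). At an unadjusted p under 0.05 there was 1 member in FAP cultures at passage 5 (IRF7, -0.67 ± 0.19). There were 0 in SC cultures at passage 5 and 0 in FAP cultures at passage 8. Unsorted FAPs had 1 at each passage, namely MX2 at -2.94 ± 0.91 for passage 5 (adjusted p = 0.09298) and -2.62 ± 0.90 for passage 8 (0.306). The share of all genes under that unadjusted threshold is not given here, so these counts are not read as a result. With the donor block MX2 was called at passage 5 (adjusted p = 2.395e-04), as it was, alone among these 5 comparisons, by DESeq2 (0.006852) and without donor 2 (0.03514; 0.01974 for passage 8). MX1 in unsorted FAPs of donors 1, 2 and 9 was at 46.6, 33.4 and 71.2 CPM at passage 2 and at 18.5, 26.7 and 36.6 CPM at passage 5, lower in each donor but not called (-0.75 ± 0.33, adjusted p = 0.1994). ISG12(B) in FAPs of all donors averaged 1150 ± 444 CPM at passage 2 (n = 8), 926 at passage 5 and 793 at passage 8 (n = 9 each).

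FAPs that appeared in the sorted SC cultures had ISG12(B) and ISG15 at levels far above those of the SCs around them, which is given with no test. There were 31 such cells at passage 2 in donors 5 and 10, the 2 donors with at least 10 of them, 694 at passage 5 and 945 at passage 8 (3 donors each). Their ISG12(B) was at 1136 ± 214 CPM at passage 5 and 1046 ± 361 at passage 8 (n = 3), next to 71.1 ± 26.4 CPM in the SCs of the same passage 5 cultures. Their ISG15 was at 246 ± 49.6 and 305 ± 51.0 CPM, against 11.6 ± 6.50 CPM in those SCs. FAP and SC donors did not overlap at passage 5 in either gene, a description only, since the share of all genes without overlap is not given here. Summed FAP markers at passage 5 were at 3276 to 4211 CPM in these FAPs and at 2068 to 2791 CPM in those SCs. FAPs of unsorted and FAP cultures had 6486 to 20076 CPM. Summed SC markers were at 1.23 to 16.9 CPM in the FAPs of SC cultures and at 145 to 198 CPM in the SCs there. MX2 had 0 UMIs in these FAPs at passages 2 and 5 and 12 at passage 8, next to 2.14, 7.60 and 5.06 CPM in the FAPs of FAP cultures (donors 4, 7 and 8) and 0.696, 0.0445 and 0.318 CPM in those of unsorted cultures (donors 1, 2 and 9) at passage 5. IFIH1 was at 45.6 ± 11.1 CPM at passage 5, against 87.9 ± 4.09 CPM in FAPs of FAP cultures and 49.0 ± 8.48 CPM in those of unsorted cultures. In both genes FAPs of SC cultures were nearer to those of unsorted than to those of FAP cultures. IFI6 did not share this order. At passage 5 it was at 332, 240 and 129 CPM in FAPs of SC cultures (donors 5, 6 and 10). These values overlapped both FAP cultures (216, 383 and 224 CPM) and unsorted cultures (203, 100 and 151 CPM).

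Several of the genes were higher in SCs of unsorted cultures than in SCs of the sorted SC cultures, a comparison chosen after these levels were seen. At passage 2 ISG15 was at 185, 22.6 and 109 CPM in SCs of donors 1, 2 and 9 (unsorted cultures) and at 10.1, 20.0 and 9.23 CPM in those of donors 5, 6 and 10. IFIH1 was at 92.7, 22.6 and 58.2 against 3.15, 10.5 and 6.33 CPM, and IRF1 at 53.8, 29.1 and 56.4 against 4.22, 13.5 and 8.63 CPM. Donor 2 was again the lowest of the unsorted cultures, and the groups did not overlap in these 3 genes. The share of all genes without overlap between these groups of 3 donors is not given here, so this is a description only.

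Of the 9 genes 6 were higher in SCs of unsorted cultures (4.46% of all genes higher, 7.51% called in either direction): IFIH1 by 3.25 ± 0.63 (adjusted p = 0.02708), ISG15 by 3.14 ± 0.74 (0.04118), IFI6 by 2.87 ± 0.71 (0.04634), IRF7 by 2.63 ± 0.51 (0.02523), IRF1 by 2.53 ± 0.46 (0.02224) and ISG12(B) by 1.25 ± 0.28 (0.03206). MX1 was not called (0.65 ± 0.47, adjusted p = 0.381). The calls depended on single donors: without donor 1 or 9 there were 0 calls, and without donor 5 or 10 there was 1, though each of the 6 kept its sign. At passage 5, 4 were higher (3.06% of all genes higher, 3.97% called), IFIH1 by 2.85 ± 0.39, IRF1 by 2.57 ± 0.35, IRF7 by 2.09 ± 0.27 and IFI6 by 1.99 ± 0.38, with adjusted p from 0.005226 to 0.03327. The call of IFI6 was lost without donor 5, 6, 9 or 10 (0.07103 to 0.1345). By then the SC culture of donor 5 held 593 FAPs beside 448 SCs, and those SCs had IFIH1 at 1.51 CPM, against 4.01 and 5.72 CPM in donors 6 and 10 and 24.6 to 30.1 CPM in unsorted cultures. Their ISG12(B), at 90.6 CPM, was above that of the other 5 cultures (41.0 to 85.8 CPM). Without donor 5 the other 3 genes were still called.

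FAP markers moved with this difference. Their sum in SCs was 2669 to 6229 CPM in unsorted cultures and 1168 to 2758 CPM in SC cultures at passage 2, all 3 markers being above 0, while the summed SC markers were at 96.3 to 133 CPM against 151 to 162 CPM. As a share of the FAPs of the same donors (1, 2 and 9), SCs had 51.9%, 20.9% and 37.8% of the FAP markers. The share was smaller in every donor for ISG12(B) (9.62%, 15.4% and 6.77%) and ISG15 (34.4%, 18.5% and 24.2%). It was larger in every donor for IFIH1 (118%, 56.7% and 77.3%), IRF7 (196%, 119.6% and 218%), MX1 (323%, 181% and 185%), IFI6 (107%, 39.3% and 78.9%) and IRF1 (72.7%, 42.3% and 64.1%). It was larger in some donors and smaller in others for RSAD2 (107%, 16.2% and 3.29%) and MX2 (75.1%, 52.5% and 9.73%). The part of FAP RNA in the difference was not tested. In the SCs found in FAP cultures (163 cells), ISG15 averaged 50.7 ± 25.7 CPM and IFI6 208 ± 172.

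The sorted lineages were set against each other at passage 2. SCs of SC cultures were lower than FAPs of FAP cultures in 8 of the 9 genes (11.8% of all genes lower, 19.5% called), with ISG15 at -5.12 ± 0.39 (adjusted p = 5.163e-04), ISG12(B) at -4.67 ± 0.39 (6.534e-04), IFI6 at -4.52 ± 0.55 (0.002069), IFIH1 at -3.92 ± 0.44 (0.001501), IRF1 at -3.75 ± 0.42 (0.001545), IRF7 at -2.21 ± 0.33 (0.003979), MX2 at -6.71 ± 1.01 (4 UMIs in SCs; 0.00413) and RSAD2 at -4.29 ± 1.17 (0.03057). The call of RSAD2 was lost without donor 4, 5, 7 or 10 (0.05489 to 0.09934). MX2 and RSAD2 had too few UMIs to test within SC cultures and entered this test through the UMIs of FAPs. Their direction was therefore fixed in advance, and both are part of the 8. MX1 was the exception, at 38.7 to 102 CPM in SCs and 92.4 to 140 CPM in FAPs, which overlap (-0.76 ± 0.38, adjusted p = 0.1675).

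Within the unsorted cultures, where SCs and FAPs came from the same donors, only ISG12(B) was called lower in SCs (-3.51 ± 0.45, adjusted p = 0.002183; 12.9% of all genes called). With the donor as a block ISG15 was lower too (-2.06, adjusted p = 4.359e-04) and MX1 was higher in SCs (1.05, adjusted p = 0.008892), and both were also called without donor 2 (0.01205 and 0.01998). FAPs of unsorted and of FAP cultures were not called apart for any of the 9 genes by edgeR at passage 2 (0.017% of all genes called); MX1 was at 33.4, 46.6 and 71.2 CPM against 92.4, 122 and 140 CPM, and DESeq2 called 1 gene there, MX1 (adjusted p = 0.008862). By edgeR 3 of the 9 had an unadjusted p under 0.05. The share of all genes under that unadjusted threshold is not given here, so the count is not read as a result.

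**Figure D5:**
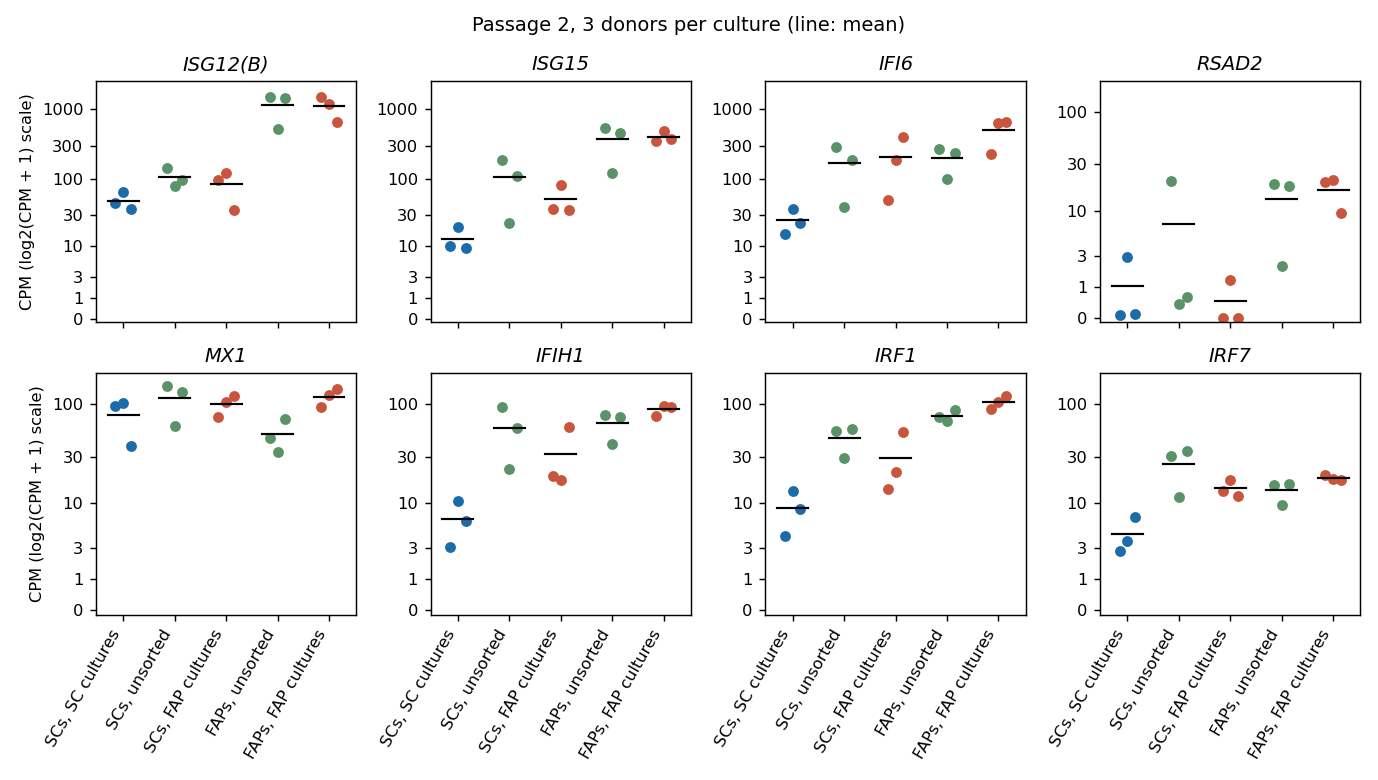
Level (CPM) of 8 genes at passage 2 in SCs of SC, unsorted and FAP cultures and in FAPs of unsorted and FAP cultures, 1 point per donor and 3 donors per group. SCs of unsorted cultures lie above those of SC cultures for IFIH1, IRF1 and ISG15, and every FAP point of ISG12(B) (513 to 1496 CPM) lies above every SC point (35.3 to 144 CPM in SC, unsorted and FAP cultures).

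The genes were also counted in single cells. UMIs of the 9 genes together made up a median of 1.59 per 10000 UMIs of a FAP in muscle, 2.02 at passage 0, 19.0 at passage 2, 13.0 at passage 5 and 16.6 at passage 8. In SCs the medians were 0.948, 0.904, 1.73, 1.60 and 6.20. When each cell was thinned to 2000 UMIs, 64.0% of muscle FAPs and 61.6% of those at passage 0 had no UMI of any of the genes, against 9.85%, 19.9% and 9.03% at passages 2, 5 and 8; in SCs the shares were 62.9%, 80.3%, 65.5%, 69.2% and 29.7%. UMIs of 3 or more of the 9 genes were seen in 0.335% of muscle FAPs and 1.15% at passage 0, then in 34.0%, 24.7% and 31.5%, and UMIs of 4 or more in 12.3%, 8.86% and 11.6% at passages 2, 5 and 8, so that most FAPs with a UMI had it from 1 or 2 of the genes. In SCs of passages 2, 5 and 8 UMIs of 3 or more were in 1.71%, 0.920% and 16.8%. The 156 SCs at passage 8 are few, and the mix of cultures behind the SC values changed: of 3979 SCs at passage 2, 3299 came from SC cultures, whereas at passage 8, among 127 SCs of donors with at least 10, 61 came from SC and 66 from unsorted cultures. Within SC cultures, SCs of donors 6 and 10 were at 7.02 and 19.0 CPM of ISG15 at passage 5 and at 95.7 and 40.6 CPM at passage 8 (25 and 36 cells). Their IFI6 was at 22.8 and 23.0 CPM and then at 287 and 33.0 CPM, so both genes were also higher at passage 8 within these donors, a step that was not tested. The summed FAP markers in these SCs went from 2791 to 4144 CPM in donor 6 and from 2236 to 2179 CPM in donor 10. The part of FAP RNA in the step was not tested either.

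ISG12(B) alone was seen in 24.2% of FAPs at passage 0 and 73.8% at passage 2 after thinning (71.3% and 97.9% unthinned, at median depths of 24188 and 29540 UMIs). In SCs the thinned shares were 3.77% and 9.07% (28.4% and 58.3% unthinned, at 18203 and 23881 UMIs). For ISG15 at passage 2 they were 40.7% in FAPs and 4.37% in SCs. No cell type in these libraries is known to lack the genes altogether, so a background share was not set; in muscle ISG12(B) was found in 0 of 1193 thinned FAPs, which limits only cells with a UMI.

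The order of levels across the 19 types and timepoints differed between genes. ISG12(B) was highest in FAPs at passage 2 (1150 CPM) and at 0 in 4 muscle types; IFI6 was highest in muscle macrophages (798 CPM), RSAD2 and MX1 in muscle VECs (158 and 138 CPM), IFIH1 in VECs at passage 0 (94.6 CPM), IRF1 in muscle SCs (222 CPM), IRF7 in macrophages at passage 0 (54.5 CPM), MX2 in muscle macrophages (29.4 CPM) and ISG15 in FAPs at passage 2 (362 CPM), neutrophils being outside this order. Neighbours in the order mostly did not differ beyond their spread: of 18 neighbouring pairs per gene, those further apart than the larger SD numbered 4 for ISG12(B), 3 for RSAD2, 1 each for IFI6, IFIH1, IRF1 and IRF7, and 0 for ISG15, MX1 and MX2.

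As a description, the 36 pairs of members correlated across these 19 means between r = -0.300 (ISG12(B) with IRF1) and 0.767 (MX1 with IFIH1), with a median of 0.383 and 31 pairs above 0; the points share libraries and donors. The genes outside the list whose pattern was most like the members' mean were PSMB10 (r = 0.871 over 19 means among 11081 genes), PARP9 (0.853), PSMB9 (0.839) and 2 genes known by identifier only. ISG12(B) lies next to IFI27 and MX1 next to MX2 in the genome, and how reads were divided between such related neighbours is uncertain.

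Other genes of the pathway were counted from fixed lists. Among 31 further antiviral effectors, 17 of 25 tested were higher and 1 lower at passage 2 than at passage 0 in FAP cultures (median log2 change 1.59), 12 higher and 1 lower of 24 in unsorted FAPs, and 0 higher and 4 lower of 23 in SC cultures. Over all genes 13.4% were higher in FAP cultures and in unsorted FAPs, and 9.76% were called in either direction in SC cultures. OAS1Y, an enzyme that makes the activator of RNase L, rose by 5.09 ± 0.48 in FAP cultures (adjusted p = 6.325e-04) and fell by 2.65 in SC cultures (SE 0.43, adjusted p = 0.007005). XAF1, a pro-apoptotic protein, rose by 1.79 ± 0.32 (0.004094) and fell by 2.92 (SE 0.51, 0.009262), and PARP14, an ADP-ribosyltransferase, rose by 1.79 ± 0.17 (6.119e-04) in FAP cultures.

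Of the antigen presentation genes 12 of 15 tested were higher and 1 lower in FAP cultures (median 1.66), 10 and 1 of 15 in unsorted FAPs, and 3 and 1 of 13 in SC cultures, against the same shares over all genes (13.4% higher in both kinds of FAPs, 22.7% and 24.0% called, and 9.76% called in SC cultures). The immunoproteasome subunits PSMB9 and PSMB8 rose by 2.60 ± 0.19 (adjusted p = 2.859e-04) and 1.37 ± 0.13 (6.325e-04) in FAP cultures, having already risen in FAPs from muscle to passage 0 by 2.89 ± 0.31 (9.975e-09) and 2.49 ± 0.20 (6.929e-11). ICAM1, an adhesion receptor for leukocytes, fell by 4.54 on leaving muscle (SE 0.16, 5.79e-18) and then rose by 1.52 ± 0.33 (0.007865). Of the 5 genes of ISG15 conjugation 4 were higher in FAP cultures, including the activating enzyme UBA7 (1.01 ± 0.14, 0.001594) and the ligase HERC5 (1.22 ± 0.11, 5.049e-04), 0 in unsorted FAPs, and 0 higher and 2 lower in SC cultures.

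Of 11 receptors and signal transducers 6 were lower in FAPs at passage 0 than in muscle and none was higher, where 43.4% of all genes were called and 21.0% were higher. The lower ones included IFNGR2 (-2.20 ± 0.10, adjusted p = 4.762e-16) and IFNGR1 (-1.70 ± 0.13, 1.361e-11), the receptor chains for interferon-gamma, and IRF9, the DNA-binding part of the ISGF3 complex (-1.71 ± 0.21, 6.282e-08). From passage 0 to 2, where 13.4% of all genes were higher in FAP cultures and 9.76% were called in SC cultures, 3 were higher in FAP cultures and none lower, with IRF9 rising by 2.48 ± 0.28 (8.727e-04) and IFNGR1 at 0.08 ± 0.16 (0.7146), and 0 were higher and 2 lower in SC cultures. Of 10 sensors and adaptors tested 5 were higher in FAP cultures between the same passages, including TLR4, the receptor for bacterial lipopolysaccharide (1.54 ± 0.36, 0.01109), which fell by 1.66 in SC cultures (SE 0.44, 0.03537). Of the other interferon regulatory factors, IRF5 rose in FAP cultures (1.35 ± 0.17, 0.001285) and IRF2 was at 0.75 ± 0.23, under the fold threshold.

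In muscle VECs 11 effectors were higher and 1 lower of 17 tested and 8 antigen presentation genes were higher and 1 lower of 11, where 11.4% of all genes were higher and 23.8% were called. In SCs of unsorted against SC cultures at passage 2, 12 of 22 effectors were higher and none lower, and 3 of 5 ISG15 conjugation genes were higher and none lower, where 4.46% of all genes were higher. That comparison rests on single donors: of all genes 508 were higher with every donor, 1 without donor 1 and 50 without donor 9.

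Transcripts of the interferons themselves were looked for as well. Of 19 interferon and cytokine ligands listed, 12 were matched by symbol and the other 7 were not analysed here. Of the 12, 6 had a mean of 0 CPM in every type and timepoint, and 8 stayed under 1 CPM. Interferon-gamma (IFNG) was at 46.0 ± 43.8 CPM in muscle lymphocytes (n = 10), the cells that normally make it, and IFNAG reached 0.180 ± 0.571 CPM in muscle VECs. TNF was highest in muscle macrophages (157 ± 87.4 CPM) and IL1B in macrophages at passage 0 (258 ± 146 CPM, n = 7). The matched type I interferon genes (IFNAG, IFNB3, IFNE, IFNK and the IFNT genes) had a mean of 0 CPM in FAPs at passage 2, which does not show absence at this depth.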

How the data were processed

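Single cells were run on the 10x Chromium 3′ kit (v3.1), so UMIs count molecules near the 3′ end. Per the labels and the study's methods, the authors aligned reads to ARS-UCD1.2 (Ensembl release 101) with Cell Ranger 6.0.1, removed cells more than 3 median absolute deviations from the median in genes, total UMIs or mitochondrial share, assigned donors by genotype and deposited raw UMI counts per gene and cell. How doublets were treated is not given in the sources used here, and no doublet caller was run. The deposited cell table gave the donor, the cell type and, as a percent, the mitochondrial share of a cell's UMIs (library medians 2.11 to 3.81%); 10 further value columns in it were not used, nor was a combined matrix of adjusted counts. Which donors went into which culture came from the study's description. The age of single donors was not used here, so calves and adults were not compared. Library pairs shared 4 to 29 barcodes.

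Raw counts were summed per donor, type and timepoint (at least 10 cells) and tested with edgeR 4.0.16 in R 4.3.3 (TMM, filterByExpr, robust quasi-likelihood F test, 2-sided, Benjamini-Hochberg over all genes of a comparison; adjusted p below 0.05 and absolute log2 fold change above 1). Of 32 comparisons 4, and all tests of differences between changes, were added after levels had been seen. Each member's level against the donor's other cells uses the sum of all other types. A gene at 0 in a group was given a lower bound from 3 counts over the group; ratios from 1 to 3 counts carry an exact conditional 95% interval. Counting intervals and floors cover counting error only. No sequence is printed, since no reference sequence was used here. The genes, lists and comparisons were chosen with earlier results of these data known; of each list, up to 3 genes called most often between passage 0 and muscle were named, and IFNG, IFNAG, IL1B and IFI27 were named after their values were seen.

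Same-numbered samples are the same animals; their deviations from the group means correlated at -0.0753 to 0.714 within comparisons. Alternatives were DESeq2 1.42.0, RLE scaling, no TMM scaling, no filter, at least 30 cells, the donor as a replicate block, leaving out each donor, and sums thinned to equal totals. On simulated counts the test recovered 99% of changed genes for muscle VECs (6905 genes), 98% for passage 0 against muscle in FAPs (9116), 88.5% for passage 2 against passage 0 in FAP cultures (11437) and 88.4% for SCs of unsorted against SC cultures (11242), with 0, 1, 9 and 15 false calls in that order. Cells were thinned to 2000 UMIs for shares of cells.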

Additional observations from a re-analysis of the deposited data

Results flagged for a closer look

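In 6 of 85 groups of 4 to 10 donors, 1 donor stood apart from the others by Dixon's test, which chance alone does in about 1 group in 20. IFI6 was at 488.3 CPM in the muscle FAPs of donor 10 (next donor 227), at 286 CPM in the passage 0 VECs of the same donor (next 105.5) and at 38.67 CPM in the passage 0 FAPs of donor 5 (next 16.75). RSAD2 was at 20.31 CPM in the passage 2 SCs of donor 1 (next 2.93) and at 2.999 CPM in the passage 5 SCs of donor 10 (next 0.9465). IRF1 in the passage 0 VECs of donor 5 was at 14.39 CPM, below the next donor at 39.22.

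Of 27 tested differences between 2 changes, 17 passed the threshold (edgeR's quasi-likelihood test, adjusted p below 0.05 and absolute difference above 1 on the log2 scale). Over all genes the share that passed was 25.5% for FAPs minus VECs, 20.0% for FAPs minus SCs and 20.9% for SCs minus VECs. It was 14.4% for FAP cultures minus SC cultures. Between muscle and passage 0, the change in FAPs minus that in VECs was 2.21 for MX1, -2.47 for IFI6, 4.10 for RSAD2 (adjusted p = 7.561e-05, with 12 UMIs in the FAPs of muscle), 3.85 for ISG15 and 1.96 for IRF7. FAPs minus SCs gave -2.73 for IFI6 and 2.87 for IRF1. SCs minus VECs gave 2.46 for MX1, -1.87 for IRF1, 3.25 for ISG15 (adjusted p = 0.04079, with 10 UMIs in the SCs of muscle) and 1.91 for IRF7. The filter on low counts removed MX1, ISG15 and IRF7 in SCs alone, and RSAD2 in FAPs alone. In these contrasts they passed it only together with VECs, where they were high in muscle, so their differences are a description only. Between passage 0 and passage 2, FAPs of FAP cultures minus SCs of SC cultures gave 4.01 for IFIH1, 5.78 for IFI6, 3.37 for IRF1, 4.55 for ISG15, 2.43 for ISG12(B) and 3.16 for IRF7. The 3 muscle contrasts share their libraries and cell types, so they are not separate tests, and the last one sets different donors and coatings against each other.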

How the results depend on the processing

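Over all settings, 1639 member values were compared with those reported; 1546 kept their direction and side of the threshold, 66 lost a call, 27 gained one and 0 reversed while called, and 48 changed sign while called in neither. Calls were counted out of the 9 genes. Passage 0 against muscle gave 4 calls in FAPs and 2 with thinned sums, 2 in SCs and 1 with RLE scaling or thinning, 3 in SMMCs but 6 without the filter and 0 thinned, 2 in macrophages but 4 without the filter and 1 thinned, and 0 in LECs but 2 without the filter. Thinning leaves fewer genes to test. Passage 2 against passage 0 in SC cultures gave 2 calls, 0 without the filter or TMM scaling, 1 with the donor as a replicate block or thinned, and 0 at the lowest with a donor left out. Passage 5 against 2 in unsorted FAPs gave 0, but 1 with DESeq2, with the replicate block and without donor 2; passage 8 against 2 there gave 1 without donor 2. SCs of unsorted against SC cultures at passage 2 gave 6, and 0 to 1 without donors 1, 5, 9 or 10. FAPs of unsorted against FAP cultures gave 0 and 1 with DESeq2. SCs against FAPs within unsorted cultures gave 1, then 2 with DESeq2, and 3 with the replicate block or without donor 2. Apart from thinning, the cause of these changes was not tested. Beyond calls given beside their results, the replicate block added IFIH1 in LECs (adjusted p = 0.04526) and IRF7 in VECs (3.281e-05) at passage 0 and changed no other call. Dropping TMM scaling shifted the median of all genes by at most -0.247 (lymphocytes of muscle) and by -0.183 in unsorted FAPs from passage 0 to 2. A minimum of 30 cells could not be run for 6 comparisons of LECs, lymphocytes and macrophages, and calves against adults was not run. MX2, and RSAD2 outside endothelium and lymphocytes, are limited by depth in muscle.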
